A study of Mus musculus with 12 samples.

Results

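The mitochondrial solute carriers of family 25 were described in 2 mouse pancreatic cell lines. Genes were taken by a symbol of the form Slc25a plus a number, so that family members under other symbols, such as Ucp2, were left out. This gave 44 genes of the 17335 in either deposited count table. Of them, 41 were listed for PSC4, 43 for KPC4 and 40 for both. PSC4 is a stellate cell line, derived from the matrix-producing stroma of the pancreas, and KPC4 is a pancreatic cancer cell line. PSC4 cells received, for 24 h, starvation medium that KPC4 cells had conditioned over 14 h. The donor KPC4 cells had beforehand been treated for 6 h and rinsed. Control-SU came from donors given vehicle, and Gem-SU from donors given gemcitabine at 10 µM. Gemcitabine is a nucleoside analogue used against pancreatic cancer. KPC4 cells in turn received, for 24 h, medium that PSC4 cells had conditioned over 18 h after a 6 h exposure to either of these supernatants and a wash (Control-PSC-SU and Gem-PSC-SU). Each of the 4 groups had 3 libraries, called biological replicates in the labels, so that 12 libraries were used. Within a line the groups differed only in the medium received, each cell type was represented by 1 line, and no group given gemcitabine directly was analysed here.

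Slc25 carriers are small proteins, most of them in the inner mitochondrial membrane, that exchange nucleotides, amino acids, carboxylates, cofactors and metals between the matrix and the cytosol. The ADP/ATP carriers export the ATP made by oxidative phosphorylation in exchange for ADP, and the phosphate carrier supplies phosphate for its synthesis. The ATP-Mg/phosphate carriers change the total adenine nucleotide content of the matrix and have calcium-binding domains that face the intermembrane space. The carriers are described below by substrate class, and those without a firmly assigned substrate form a class of their own.

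Library totals ran from 29559414 to 38138356 counts for PSC4 and from 26354328 to 34744150 for KPC4, and the carriers took 0.205% to 0.292% of them. In PSC4 all 8 mesenchymal markers exceeded 1 CPM (counts scaled to library totals and TMM factors within a line) in at least 1 library. Of 6 epithelial markers only Krt19 did. In KPC4 all 6 epithelial markers and 3 of the 8 mesenchymal ones (Vim, Col3a1 and Col1a1) exceeded 1 CPM in at least 1 library. The summed mesenchymal markers of PSC4 lay between 6696 and 7463 CPM with Control-SU and between 2343 and 3485 CPM with Gem-SU, and their summed epithelial markers between 2.73 and 4.99 CPM and between 7.12 and 9.87 CPM. In KPC4 the summed mesenchymal markers, nearly all of them Vim, lay between 2416 and 2805 CPM with Control-PSC-SU and between 1847 and 2207 CPM with Gem-PSC-SU, and the epithelial ones between 5803 and 7199 CPM and between 5829 and 7257 CPM. The first 3 of these 4 sums did not overlap between the groups, so that they moved with the same contrasts as the carriers below, and their part in the carrier results was not tested. Immune markers to at most 5.09 CPM and endothelial markers to at most 3.72 CPM in any library of either line. In such bulk libraries, fewer cells of a type and less RNA per cell cannot be told apart.

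The regions upstream of the starts of Slc25a25 and Slc25a33, the carriers with the largest increases in PSC4, are shown so that the measured genes can be read beside their sequence, with that of Slc25a5 as a carrier that also rose. Each holds the 250 bases before an annotated start, read 5′ to 3′ on the strand of the gene from RefSeq on GRCm38.p6, while the count tables were made on GRCm39. Slc25a25 has 3 annotated starts on the minus strand of chromosome 2, at chr2:32451471-32451720, chr2:32431152-32431401 and chr2:32424067-32424316. The windows of Slc25a33 on the minus strand (chr4:149774268-149774517) and of Slc25a5 on the plus strand (chrX:36795347-36795596) belong to single starts. Capitals mark every match to the searched motifs.
Slc25a25 start 1: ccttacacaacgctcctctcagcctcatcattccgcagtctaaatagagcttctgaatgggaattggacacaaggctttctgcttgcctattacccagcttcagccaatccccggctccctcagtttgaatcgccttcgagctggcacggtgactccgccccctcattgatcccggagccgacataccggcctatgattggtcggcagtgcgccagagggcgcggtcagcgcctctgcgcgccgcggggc
Slc25a25 start 2: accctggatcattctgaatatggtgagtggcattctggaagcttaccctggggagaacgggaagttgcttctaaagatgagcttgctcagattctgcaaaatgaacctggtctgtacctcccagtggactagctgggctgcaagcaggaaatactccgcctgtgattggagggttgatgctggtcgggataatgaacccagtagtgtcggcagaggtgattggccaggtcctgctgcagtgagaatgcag
Slc25a25 start 3: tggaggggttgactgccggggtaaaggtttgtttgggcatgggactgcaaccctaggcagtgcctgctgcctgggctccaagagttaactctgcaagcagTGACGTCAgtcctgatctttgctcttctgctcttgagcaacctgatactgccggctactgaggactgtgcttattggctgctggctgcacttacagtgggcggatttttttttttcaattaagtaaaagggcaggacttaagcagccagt
Slc25a33: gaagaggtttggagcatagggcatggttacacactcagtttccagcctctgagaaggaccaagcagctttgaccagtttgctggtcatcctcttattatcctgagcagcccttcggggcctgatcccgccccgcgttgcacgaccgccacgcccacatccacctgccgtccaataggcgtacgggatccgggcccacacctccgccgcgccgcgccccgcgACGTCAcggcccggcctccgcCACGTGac
Slc25a5: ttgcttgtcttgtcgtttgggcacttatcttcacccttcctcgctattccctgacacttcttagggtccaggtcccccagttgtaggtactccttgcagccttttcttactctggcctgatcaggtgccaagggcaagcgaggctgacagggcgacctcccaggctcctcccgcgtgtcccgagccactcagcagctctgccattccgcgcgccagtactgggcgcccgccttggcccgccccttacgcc

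A set of 5 motifs was searched on both strands: the cyclic AMP response element TGACGTCA, its shorter form TGACGT that lies inside it, the AP-1 motif TGANTCA, the composite motif TGATGNAAT and the E-box CACGTG. The third start of Slc25a25 held TGACGTCA 150 bases before the start, and the window of Slc25a33 held the shorter form, read on the other strand as ACGTCA, 29 bases before the start and an E-box 8 bases before it. The window of Slc25a5 held none of the 5. Of 32851 RefSeq windows, 1.55% held TGACGTCA, and of 44 windows kept for 34 of the carriers it stood in 2, those of Slc25a25 and Slc25a36. Carrier windows on a single chromosome were left out of these 44, a rule not applied to the windows of all genes. The shorter form stood in 4 carrier windows and 6.47% of all windows, AP-1 in 2 and 6.75%, the composite motif in 0 and 0.816%, and the E-box in 7 windows of 6 carriers and 6.02%. A match describes the letters in the window and is not a measured binding site, and the gene-level counts do not tell which start was used.

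The first comparison asked how the carriers of PSC4 differ after Gem-SU rather than Control-SU. Of the 39 carriers that passed the filter on low counts, 23 changed, 13 towards higher and 10 towards lower expression (edgeR quasi-likelihood test, Benjamini-Hochberg adjusted p under 0.05 over all genes tested). The share called was 59.0% of the carriers, beside 46.3% of all 13347 genes tested, of which 24.3% were higher and 22.0% lower. The median log2 fold change was 0.22 over the carriers and -0.0032 over all genes. An unadjusted p under 0.05 was reached by 27 carriers and by 53.9% of all genes. At least 2-fold changes were made by 12 carriers, 8 higher and 4 lower, where 25.2% of all genes tested passed both criteria. For 28 carriers the Gem-SU and Control-SU libraries did not overlap, as for 56.4% of all genes. P-values here set each difference against the spread between these cultures of 1 line, and cover no other line.

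**Figure D1:**
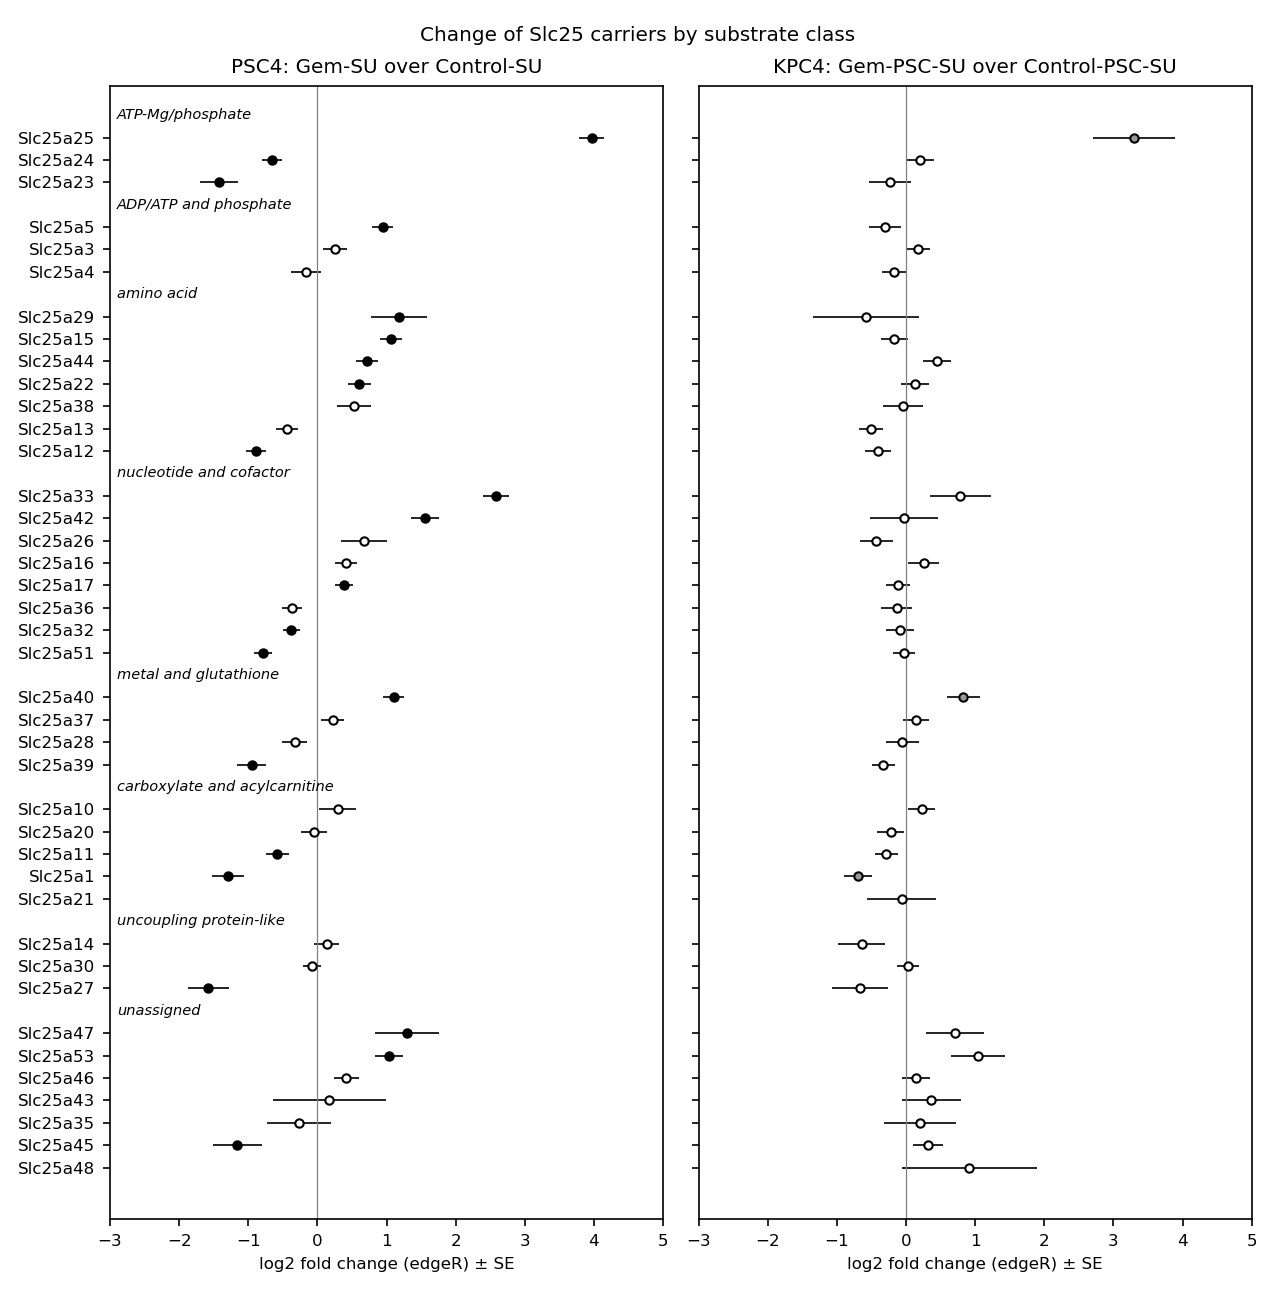
Log2 fold change of the tested carriers reported singly (horizontal axis, edgeR estimate with its standard error) by substrate class, in PSC4 on the left and KPC4 on the right. Black points have an adjusted p under 0.05, and grey points, used for KPC4 only, pass only with the replicate number as a block. In PSC4, Slc25a13, Slc25a16, Slc25a26 and Slc25a46 also pass only with the block and are drawn white. Slc25a25 lies farthest to the right in both lines, at 3.97 and 3.29.

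Among the ATP-Mg/phosphate carriers, all 3 tested members changed in PSC4, and not in the same direction. Slc25a25 (ENSMUSG00000026819), a calcium-regulated carrier that loads the matrix with ATP-Mg in exchange for phosphate, stood at 10.8, 8.87 and 8.32 CPM with Control-SU and at 166, 140.1 and 131 CPM with Gem-SU. Every Gem-SU library was above every control library, and the log2 fold change was 3.97 ± 0.18 (SE), or 15.6-fold (edgeR adjusted p = 1.45e-05), the largest increase of any carrier tested. Its paralogue Slc25a24 (ENSMUSG00000040322), which carries the same substrates, fell from 109, 123 and 94.8 CPM to 66.1, 71.1 and 70.3 CPM. These groups did not overlap either, with a log2 fold change of -0.66 ± 0.14 (SE) and an adjusted p of 0.00608 in edgeR. Slc25a23 (ENSMUSG00000046329), the other paralogue, fell from 30.3, 26.2 and 30.7 CPM to 15.7, 9.04 and 7.66 CPM. Its log2 fold change was -1.43 ± 0.27 (SE, edgeR adjusted p = 0.00335), and its libraries separated by group.

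The make-up of this class differed between the groups. Levels of different genes were compared as CPM per kb of exon. Slc25a25 made up 4.70% to 6.03% of the 3 carriers in the control libraries and 58.4% to 62.7% with Gem-SU. Its mean share was 5.31% ± 0.671 and 60.1% ± 2.29 (SD, n = 3 each), that of Slc25a24 was 74.2% ± 3.66 and 34.5% ± 3.95, and that of Slc25a23 was 20.5% ± 3.30 and 5.37% ± 1.66. The summed level of the class was 42.7 ± 3.57 CPM per kb with Control-SU and 58.7 ± 4.87 with Gem-SU (SD, n = 3 each). In each of these 4 quantities the groups did not overlap, and the two-sided exact permutation test gave p = 0.1, the smallest that 3 libraries against 3 allow.

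**Figure D2:**
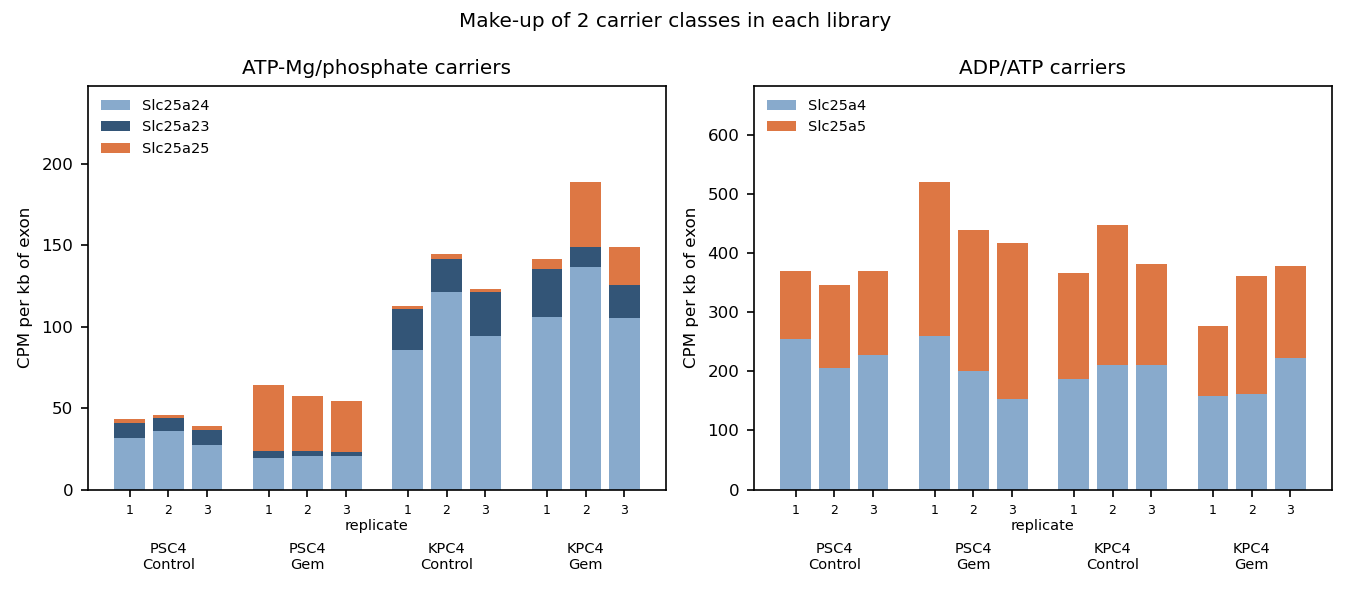
Level of each carrier in CPM per kb of exon (vertical axis, bars from 0), stacked within the ATP-Mg/phosphate class on the left and the ADP/ATP class on the right, with 1 bar per library. In PSC4 the Slc25a25 segment averaged 5.31% of its class with Control-SU and 60.1% with Gem-SU, and the Slc25a5 segment 36.7% and 55.9%.

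Of the carriers of ADP, ATP and phosphate, 1 of 3 changed in PSC4. Slc25a5 (ENSMUSG00000016319), the ADP/ATP carrier found in most proliferating cells, rose from 143, 174 and 175 CPM to 323, 296 and 327 CPM. All Gem-SU libraries exceeded all control libraries, by 0.94 ± 0.15 on the log2 scale (SE, edgeR adjusted p = 0.00137). Slc25a4 (ENSMUSG00000031633), the ADP/ATP carrier typical of heart and muscle, stood at 489.9, 395 and 439 CPM with Control-SU and at 499, 385 and 296 CPM with Gem-SU. These groups overlapped, and the log2 fold change was -0.17 ± 0.21 (SE, edgeR adjusted p = 0.548). The phosphate carrier Slc25a3 did not pass either, with a log2 fold change of 0.25 and overlapping groups. Slc25a5 made up 36.7% ± 4.90 of the ADP/ATP carriers with Control-SU and 55.9% ± 6.63 with Gem-SU (SD, n = 3 each, CPM per kb, two-sided exact permutation p = 0.1). Reads of Slc25a5 can be shared with near-identical processed copies in the genome, and how these were counted is not given in the sources used here.

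**Figure D3:**
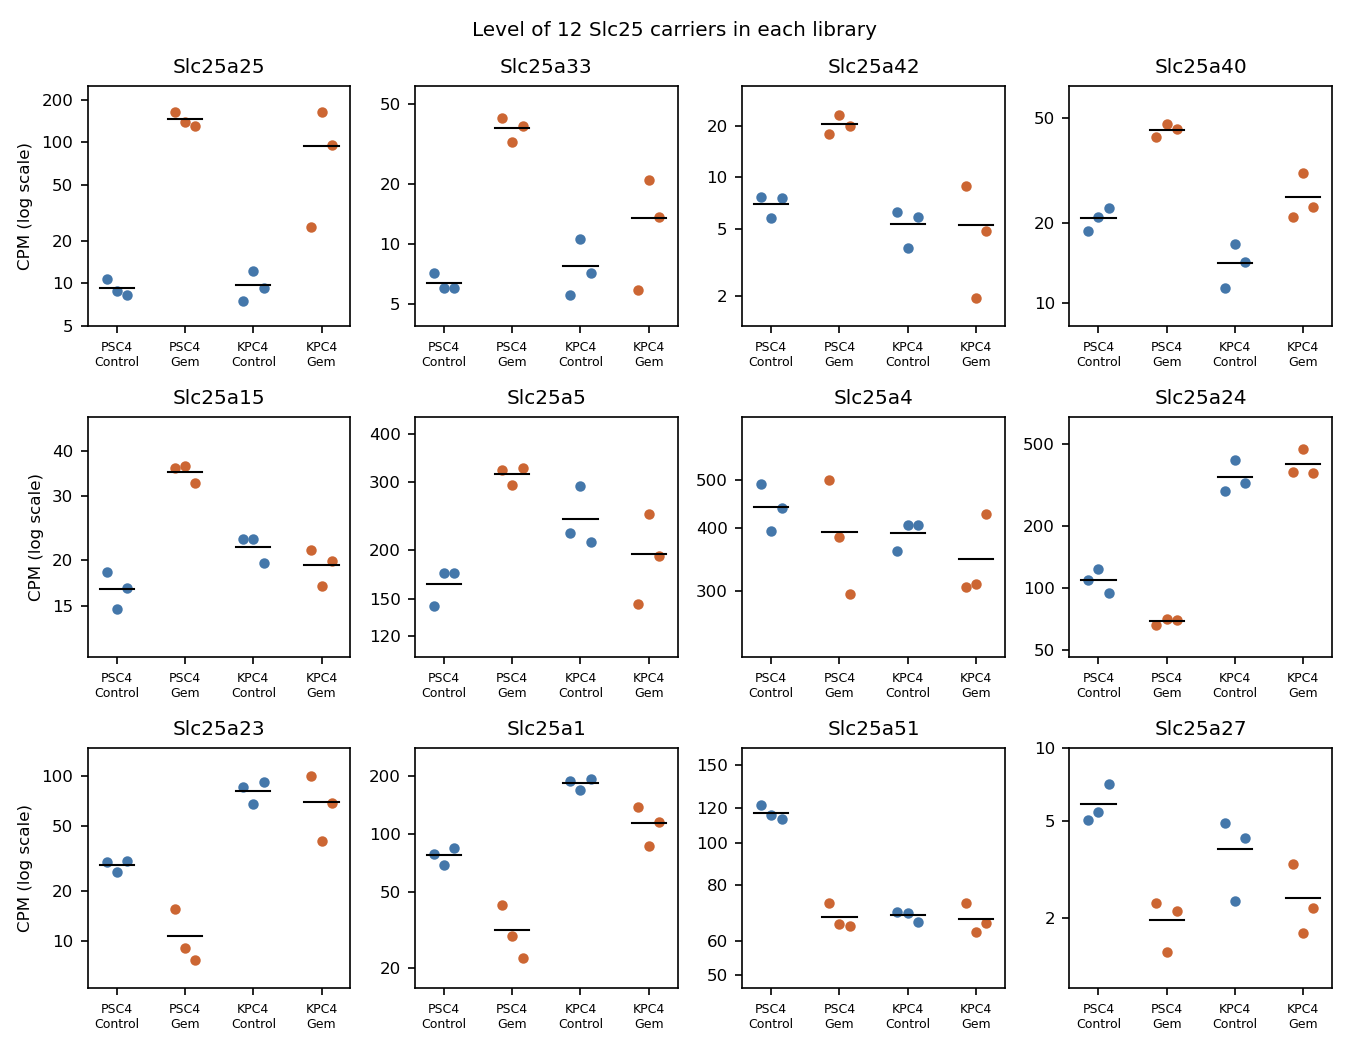
CPM of 12 carriers (vertical axis, log scale) in each of the 12 libraries, with control groups in blue, Gem groups in orange and a black line at the group mean. Slc25a25 in PSC4 lay at 8.32 to 10.8 CPM in control libraries and 131 to 166 CPM with Gem-SU, and in KPC4 a Gem-PSC-SU library at 25.0 CPM stood apart from the other two.

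Of 7 amino acid carriers tested in PSC4, 4 rose and 1 fell. Slc25a15 (ENSMUSG00000031482), the ornithine carrier of the urea cycle and of polyamine and proline synthesis, rose from 18.6, 14.7 and 16.8 CPM to 35.9, 36.5 and 32.6 CPM. The groups were well separated, at 1.07 ± 0.16 on the log2 scale (SE, edgeR adjusted p = 0.00120). Slc25a29, a carrier of basic amino acids, rose from 1.04, 0.568 and 0.878 CPM to 2.16, 1.92 and 1.59 CPM, a log2 fold change of 1.18 ± 0.41 (SE, edgeR adjusted p = 0.0407). Its groups did not overlap, but at this low level the call was lost in each of the 6 fits that left out 1 library, with adjusted p from 0.0629 to 0.123. Slc25a44, which carries branched-chain amino acids, and the glutamate carrier Slc25a22 rose by 0.71 and 0.61 on the log2 scale. Slc25a12, the calcium-regulated aspartate/glutamate carrier of the malate-aspartate shuttle, fell by 0.89, and its paralogue Slc25a13 had a log2 fold change of -0.44 that did not pass (edgeR adjusted p = 0.0516). The glycine carrier Slc25a38 had 0.53 and did not pass.

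Nucleotide and cofactor carriers changed in both directions in PSC4, with 4 higher and 2 lower of 9. Slc25a33 (ENSMUSG00000028982), a carrier of pyrimidine nucleotides, rose from 7.13, 6.00 and 5.98 CPM to 43.0, 32.3 and 39.1 CPM. The groups were far apart, at a log2 fold change of 2.58 ± 0.19 (SE, edgeR adjusted p = 5.98e-05), or 5.98-fold, next in size to Slc25a25. Slc25a42 (ENSMUSG00000002346), the coenzyme A carrier, rose from 7.65, 5.75 and 7.57 CPM to 18.1, 23.5 and 20.2 CPM. No control library reached the lowest Gem-SU library, and the log2 fold change was 1.56 ± 0.21 (SE, edgeR adjusted p = 5.96e-04). The peroxisomal carrier Slc25a17 rose by 0.38. Slc25a51 (ENSMUSG00000045973), which brings NAD into mitochondria, fell from 122, 116 and 113 CPM to 72.9, 65.4 and 64.7 CPM, without overlap and by 0.79 on the log2 scale (edgeR adjusted p = 0.00149). Slc25a32, linked to folate and flavin transport, fell by 0.38. Slc25a36, the paralogue of Slc25a33 that also carries pyrimidine nucleotides, had a log2 fold change of -0.37 that did not pass (edgeR adjusted p = 0.0733), and Slc25a16 and the S-adenosylmethionine carrier Slc25a26 had 0.41 and 0.68 and did not pass.

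Among the metal and glutathione carriers, the 2 glutathione-linked paralogues moved apart in PSC4. Slc25a40 (ENSMUSG00000054099) rose from 18.7, 21.2 and 22.8 CPM to 42.2, 47.2 and 45.5 CPM, at 1.11 ± 0.15 on the log2 scale (SE, edgeR adjusted p = 7.20e-04). Slc25a39 fell by 0.95 (edgeR adjusted p = 0.00634). Neither gene had overlapping groups. The mitoferrins Slc25a37 and Slc25a28, which import iron for haem and iron-sulphur clusters, had 0.22 and -0.33 and did not pass.

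Carboxylate carriers that passed in PSC4 were both lower. Slc25a1 (ENSMUSG00000003528), the citrate carrier that supplies cytosolic acetyl units for lipid synthesis, fell from 78.8, 68.9 and 84.5 CPM to 42.7, 29.4 and 22.7 CPM. The groups did not overlap, and the log2 fold change was -1.29 ± 0.23 (SE, edgeR adjusted p = 0.00241). The oxoglutarate carrier Slc25a11 fell by 0.58, while the dicarboxylate carrier Slc25a10 and the carnitine/acylcarnitine carrier Slc25a20 had 0.29 and -0.04 and did not pass. Of the carriers related to uncoupling proteins, Slc25a27 fell from 5.04, 5.46 and 7.12 CPM to 2.31, 1.44 and 2.13 CPM, at -1.58 ± 0.30 on the log2 scale (SE, edgeR adjusted p = 0.00307). Its groups did not overlap. This estimate was the lowest of the carriers tested, but it differed from that of Slc25a23 by less than either SE, and without Gem-SU replicate 1 Slc25a23 was lower, at -1.80 against -1.71. Slc25a14 and Slc25a30 had 0.13 and -0.07 and did not pass.

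Of 6 tested carriers without an assigned class, 2 rose and 1 fell in PSC4. Slc25a53 rose from 8.38, 6.47 and 6.34 CPM to 13.1, 14.7 and 15.7 CPM, at 1.04 ± 0.20 on the log2 scale (SE, edgeR adjusted p = 0.00373), without overlap. Slc25a47, known as a liver carrier, rose from 1.80, 0.568 and 2.02 CPM to 3.82, 4.03 and 2.91 CPM, at 1.29 ± 0.46 (SE, edgeR adjusted p = 0.0475). Slc25a45 fell from 5.19, 3.35 and 3.71 CPM to 2.55, 1.26 and 1.66 CPM, at -1.16 ± 0.36 (SE, edgeR adjusted p = 0.0274). Both of these low genes had groups that did not overlap. The call of Slc25a47 was lost in each of the 6 fits that left out 1 library (adjusted p up to 0.137) and that of Slc25a45 in 4 of them (up to 0.105), those without Control-SU replicate 1 or 3 or Gem-SU replicate 2 or 3. Slc25a46, an outer membrane protein of mitochondrial dynamics, Slc25a43 and Slc25a35 had 0.42, 0.17 and -0.27 and did not pass. Slc25a43 passed the filter only through the Gem-SU group.

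Carriers that failed the filter on low counts were not tested. In PSC4, Slc25a2, a second ornithine carrier, had 25, 15 and 9 counts with Control-SU and 4, 5 and 1 with Gem-SU, and the glutamate carrier Slc25a18 had at most 3 counts in any library. In KPC4, Slc25a18 had at most 10 counts and Slc25a34 at most 28. Slc25a2 stood only in the PSC4 table, and Slc25a21, Slc25a34 and Slc25a48 only in the KPC4 table.

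The sum over all carriers did not separate the groups in either line. It was 1017 ± 62.5 CPM per kb with Control-SU and 1138 ± 104 with Gem-SU in PSC4 (SD, n = 3 each, two-sided exact permutation p = 0.2), and 1239 ± 62.6 and 1178 ± 71.8 in the KPC4 groups (p = 0.4 by the same exact test). Slc25a3, Slc25a4 and Slc25a5 together made up 50.1% ± 0.454 of it in control PSC4 and 55.7% ± 1.08 with Gem-SU (SD, n = 3 each, exact permutation p = 0.1), against 45.7% ± 2.20 and 44.8% ± 4.32 in the KPC4 groups (exact permutation p = 0.8).

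The authors' deposited table for PSC4 listed 41 carriers and called 22 of them at an adjusted p under 0.05, 13 higher and 9 lower, and 20 of these were also called from the counts here. It gave log2 fold changes of 3.81 for Slc25a25 and 2.55 for Slc25a33. For Slc25a32 the authors' deposited table gave 0.08 with an adjusted p of 0.746, where the counts gave -0.38 with 0.0312 in edgeR, so the sign of this carrier differed between the sources. The sign of Slc25a14, called in neither, also differed, at -0.31 there and 0.13 here. Only the authors called Slc25a36 and Slc25a37, at -0.71 and 0.55. Slc25a29 and Slc25a45, called here, had adjusted p of 0.269 and 0.190 in the authors' table.

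The second comparison asked how the carriers of KPC4 differ after Gem-PSC-SU rather than Control-PSC-SU. Of 41 carriers tested, 0 passed in edgeR, as did 0% of all 13236 genes, and 6 carriers had an unadjusted p under 0.05, beside 17.0% of all genes. With the replicate number as a block, 3 carriers passed, Slc25a25 and Slc25a40 higher and Slc25a1 lower. They were 7.32% of the carriers, beside 8.85% of all genes (6.07% higher and 2.78% lower). The block was chosen from correlations in these same values, the labels do not give it as a pairing, and its calls are not independent of that choice. DESeq2 called 2, Slc25a25 and Slc25a40, without a share over all genes set beside this count. The groups did not overlap for 12 carriers, 6 in each direction, and for 22.8% of all genes. The median log2 fold change was -0.03 over the carriers and -0.02 over all genes.

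Slc25a25 again had the largest difference. It stood at 7.52, 12.3 and 9.24 CPM with Control-PSC-SU and at 25.0, 164 and 95.4 CPM with Gem-PSC-SU. The groups did not overlap, but Gem-PSC-SU replicate 1 was far below the other two, and the log2 fold change of 3.29 ± 0.59 (SE) had an edgeR adjusted p of 0.112. With the block it was 2.98 (adjusted p = 0.0206), and without that library 3.74 (edgeR adjusted p = 7.56e-04). That was the 1 fit of the 6 leaving out 1 library that passed. The others had adjusted p up to 0.509, and without Gem-PSC-SU replicate 2 the log2 fold change was 2.64. The authors' deposited table gave 2.83 with an adjusted p of 5.79e-07 and called no other of its 43 listed carriers. A share over all genes of that table is not set beside this count. Slc25a25 made up 1.62%, 2.06% and 1.82% of the ATP-Mg/phosphate carriers with Control-PSC-SU and 4.29%, 21.1% and 15.6% with Gem-PSC-SU (CPM per kb, two-sided exact permutation p = 0.1), so that Slc25a24 remained the most abundant of the 3 in all KPC4 libraries, at 70.8% to 83.9%. Slc25a24 itself stood at 294, 416 and 323 CPM and at 363, 470.2 and 361 CPM, with overlapping groups and a log2 fold change of 0.21 (edgeR adjusted p = 0.603).

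Slc25a40 stood at 11.4, 16.7 and 14.3 CPM with Control-PSC-SU and at 21.1, 31.0 and 23.1 CPM with Gem-PSC-SU. These groups did not overlap, and the log2 fold change of 0.83 ± 0.24 (SE) had an edgeR adjusted p of 0.165, or 0.0262 with the block. Slc25a1 stood at 189, 169 and 193 CPM and at 138, 86.1 and 116 CPM. It was lower in every Gem-PSC-SU library, with a log2 fold change of -0.70 ± 0.20 (SE, edgeR adjusted p = 0.165, and 0.0253 with the block). Slc25a53 stood at 3.69, 3.11 and 2.18 CPM and at 3.38, 8.03 and 7.16 CPM, with an overlap of 1 library and a log2 fold change of 1.05 (edgeR adjusted p = 0.233, and 0.0440 without Gem-PSC-SU replicate 1). The aspartate/glutamate carriers were both lower in all Gem-PSC-SU libraries without passing. Slc25a13 stood at 52.5, 51.4 and 47.1 CPM and at 39.2, 32.2 and 34.7 CPM (log2 fold change -0.51, edgeR adjusted p = 0.212), and Slc25a12 at 82.4, 101 and 79.0 CPM and at 78.1, 60.3 and 59.8 CPM (log2 fold change -0.40, edgeR adjusted p = 0.321).

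The ADP/ATP carriers did not pass in KPC4. Slc25a5 stood at 222, 293 and 210.3 CPM with Control-PSC-SU and at 146, 248 and 193 CPM with Gem-PSC-SU, and Slc25a4 at 360.1, 407 and 406 CPM and at 306, 311 and 428 CPM. Both had overlapping groups, with log2 fold changes of -0.31 ± 0.23 and -0.17 ± 0.18 (SE, edgeR adjusted p = 0.519 and 0.662). Slc25a5 made up 48.8% ± 4.13 and 46.3% ± 7.81 of this pair (SD, n = 3 each, CPM per kb, exact permutation p = 0.7). By class, the log2 fold changes of KPC4 lay between -0.58 and 0.45 for amino acid carriers, -0.43 and 0.79 for nucleotide and cofactor carriers, -0.33 and 0.83 for metal and glutathione carriers, -0.70 and 0.23 for carboxylate carriers and -0.66 and 0.03 for the carriers related to uncoupling proteins. The -0.58 was that of Slc25a29, with an SE of 0.77. This carrier lay between 0.208 and 0.502 CPM with Control-PSC-SU and between 0.0930 and 0.463 CPM with Gem-PSC-SU. The 7 unassigned carriers tested had estimates between 0.14 and 1.05, and none passed. That of Slc25a35 was below 0 without Gem-PSC-SU replicate 1 or without Control-PSC-SU replicate 3, and that of Slc25a46 without Gem-PSC-SU replicate 2. Slc25a48, which passed the filter only through the Gem-PSC-SU group, stood at 0.115, 3.65 and 0.435 CPM and at 2.17, 4.03 and 1.73 CPM.

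The change itself was then compared between the lines in 1 fit over all 12 libraries. It differed for 6 of 39 carriers (edgeR interaction, adjusted p under 0.05), 3 in each direction, beside 9.85% of all 13632 genes (4.75% higher and 5.10% lower in PSC4 than in KPC4). With the replicate block it differed for 10, 5 in each direction, beside 21.9% of all genes (9.95% higher in PSC4 than in KPC4, the rest lower). In that fit the block paired same-numbered libraries within both lines, although those of PSC4 were not taken as pairs from their values. For Slc25a15 the change in PSC4 exceeded that in KPC4 by 1.18 ± 0.25 on the log2 scale (SE, edgeR adjusted p = 0.0123). KPC4 held 22.9, 22.9 and 19.7 CPM of this ornithine carrier with Control-PSC-SU and 21.3, 17.0 and 19.9 CPM with Gem-PSC-SU, with overlapping groups. For Slc25a5 the difference was 1.20 ± 0.28 (SE, edgeR adjusted p = 0.0188). For both of these carriers it passed in each of the 12 fits that left out 1 library.

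The NAD carrier Slc25a51 stood at 69.7, 69.2 and 66.1 CPM in KPC4 with Control-PSC-SU and at 72.8, 62.8 and 65.9 CPM with Gem-PSC-SU. These groups overlapped, and the difference between the lines was -0.81 ± 0.19 (SE, edgeR adjusted p = 0.0210). Slc25a45 stood at 6.23, 6.37 and 6.30 CPM and at 7.55, 8.18 and 7.80 CPM in KPC4, higher in every Gem-PSC-SU library, and differed between the lines by -1.53 ± 0.42 (SE, edgeR adjusted p = 0.0355). Slc25a24, which fell in PSC4, differed by -0.91 ± 0.25 (SE, edgeR adjusted p = 0.0363). Slc25a33 stood at 5.56, 10.6 and 7.17 CPM and at 5.84, 20.9 and 13.6 CPM in KPC4, with overlapping groups, and differed by 1.75 ± 0.51 (SE, edgeR adjusted p = 0.0473). Of the 12 fits that left out 1 library, Slc25a51 passed in 10, with an adjusted p of 0.0613 without PSC4 Gem-SU replicate 2 and 0.0616 without KPC4 Control-PSC-SU replicate 3. Slc25a24 passed in 5 of them, those without PSC4 Gem-SU replicate 1, KPC4 Control-PSC-SU replicate 2 or any 1 Gem-PSC-SU library (adjusted p up to 0.0934 in the others). Slc25a45 passed in 4, those without PSC4 Control-SU replicate 2, PSC4 Gem-SU replicate 1 or Gem-PSC-SU replicate 1 or 2 (up to 0.0958). Slc25a33 passed in 3, those without Control-PSC-SU replicate 1 or Gem-PSC-SU replicate 1 or 2 (up to 0.108). The 4 further carriers that passed with the block were Slc25a26 and Slc25a42, with a change higher in PSC4, and Slc25a23 and Slc25a39, with a change lower there (block adjusted p from 0.0115 to 0.0469). For Slc25a25 the difference of 0.64 ± 0.63 (SE) did not pass (edgeR adjusted p = 0.565), and for Slc25a40 and Slc25a4 it was 0.23 and -0.05 with adjusted p of 0.640 and 0.936.

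The control groups showed where each line started. Line and conditioned medium cannot be told apart in this contrast. The 3 most abundant carriers were the same in both lines. In control PSC4 the order was Slc25a4 at 229 ± 24.7, Slc25a3 at 148 ± 24.0 and Slc25a5 at 132 ± 14.6 CPM per kb (SD, n = 3 each), where Slc25a3 and Slc25a5 differed by less than the SD of Slc25a3. In control KPC4, Slc25a4 at 203 ± 13.9, Slc25a5 at 195 ± 36.1 and Slc25a3 at 169 ± 13.0 CPM per kb differed from their neighbours by less than the SD of Slc25a5. Slc25a1 and Slc25a24 followed at 110.4 ± 7.88 and 100.4 ± 18.6, closer than the SD of Slc25a24. Slc25a25 was low in both lines, at 2.26 ± 0.310 in PSC4 and 2.35 ± 0.584 in KPC4, with a log2 difference of -0.06 ± 0.45 (SE, edgeR adjusted p = 0.923).

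**Figure D4:**
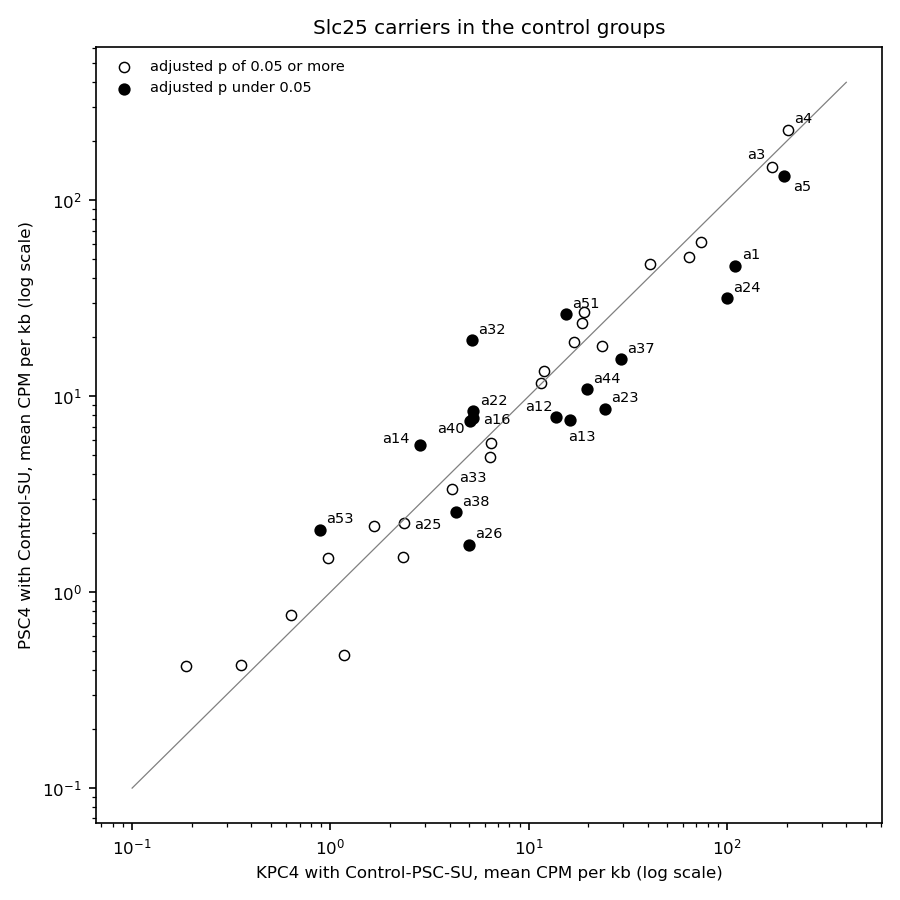
Mean level of each carrier tested in both lines, in CPM per kb on log scales, in control PSC4 (vertical axis) against control KPC4 (horizontal axis), with labels shortened to the part after Slc25 and a grey line of equal level. Black points have an adjusted p under 0.05, and Slc25a32 lies farthest above the line and Slc25a24 farthest below it among them.

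Between the control groups 17 of 39 carriers differed (edgeR, adjusted p under 0.05), or 43.6% beside 42.9% of all genes (22.3% higher and 20.6% lower in PSC4), so that the share was near the background. The 7 carriers higher in PSC4 included Slc25a32 at a log2 fold change of 1.90, Slc25a53 at 1.23 and Slc25a51 at 0.76. The 10 higher in KPC4 included Slc25a24 at -1.67, Slc25a26 at -1.52, Slc25a23 at -1.49, Slc25a1 at -1.26 and Slc25a5 at -0.57. The call of Slc25a5 was lost in 5 of the 12 fits that left out 1 library (adjusted p up to 0.147), those without PSC4 Control-SU replicate 1, PSC4 Gem-SU replicate 2 or 3, KPC4 Control-PSC-SU replicate 2 or Gem-PSC-SU replicate 3. Both Slc25a24 and Slc25a23 were thus higher in KPC4, whose ATP-Mg/phosphate carriers summed to 127 ± 16.1 CPM per kb with Control-PSC-SU and 159.8 ± 25.5 with Gem-PSC-SU (SD, n = 3 each, exact permutation p = 0.2).

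Genes with other symbols, most of which act next to the carriers, were described from lists, without a test of any list. Their counts stand beside the 46.3% of all genes called in PSC4 (24.3% higher and 22.0% lower). Of 11 genes of carrier import, the pathway that brings these proteins through the outer membrane and inserts them into the inner one, 3 rose in PSC4 and 0 fell, or 27.3% called, with a median log2 fold change of 0.38. They were the small chaperone Timm8a1 at 1.14, the insertion complex subunit Timm29 at 0.83 and the receptor Tomm70a at 0.61. Of 8 genes of inner membrane calcium handling, 62.5% were called. Of these 3 rose, the uniporter regulator Micu3 at 2.65, Letm1 at 1.06 and the calcium uniporter pore Mcu at 1.02, and 2 fell, Micu2 at -0.96 and the pore paralogue Mcub at -0.51. Of 13 other mitochondrial transport genes 1 rose and 4 fell, or 38.5%, among them the sideroflexins Sfxn2 at 1.19 and Sfxn3 at -2.60. This list held the family members Ucp2, Mtch1 and Mtch2, of which only Ucp2 passed, at -1.53 (edgeR adjusted p = 0.0479). Of 8 biogenesis regulators only Pprc1 passed, or 12.5%, at 0.47, while Tfam, the mitochondrial DNA-packaging factor, had 0.17. In KPC4 0 genes of these 4 lists passed in edgeR, with 3 at an unadjusted p under 0.05, and with the block only Sfxn3 passed, at a lower level. Of all KPC4 genes, 0% passed in edgeR, 17.0% had such an unadjusted p and 8.85% passed with the block. The change differed between the lines for Timm8a1, Timm29, Micu3, Sfxn2 and Ucp2 (edgeR interaction, adjusted p from 0.00747 to 0.0413). These were 2 of 11 carrier import genes, 1 of 8 calcium genes, 2 of 13 other transport genes and 0 of 8 biogenesis regulators. Of all genes, 9.85% were called in this interaction.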

How the data were processed

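RNA of 12 cultures was sequenced, per the labels. The authors deposited a table of whole-number counts per gene for each line. Per the submitters' processing notes, reads were handled with FastQC, Trim Galore 0.6.10, cutadapt 5.2, Salmon, R 4.5.1 and DESeq2 on GRCm39, and the annotation and counting rule are not given in the sources used here. The smallest row total was 11 for KPC4 and 0 for PSC4. The authors' comparison tables give a log2 fold change, p-value and adjusted p-value per symbol, deposited per line, and were used only as their values.

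Symbols came from GENCODE M21 and matched 99.7% of identifiers in each table. Each line was fitted by itself over all genes in edgeR 4.0.16 (R 4.3.3), with filterByExpr (minimum count 10), TMM scaling and the robust quasi-likelihood test, adjusted by Benjamini-Hochberg at 0.05. Differences between the lines and between control groups came from 1 fit of 12 libraries. Standard errors were the log2 fold change over the root of the F statistic. CPM was computed without a pseudocount. CPM per kb used the union of exons in GENCODE M21. Motifs were searched in the 250 bases before RefSeq starts. The test was also run on simulated counts without a replicate effect, and nothing is drawn from that run here.

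Full values are given for Slc25a25, Slc25a4, Slc25a5, PSC4 calls of at least 2-fold, 3 carriers in each direction with the smallest p in KPC4, and the 5 smallest p of the interaction. The difference of Slc25a33 and the library values of Slc25a48 were added after their values were seen. A carrier that enters the counts is not reported here by itself. The carriers, classes and lists were chosen with earlier results of these data known. All 12 libraries were kept. Replicates differed beyond sampling noise (chi-square per degree of freedom at least 30.4), most between KPC4 Gem-PSC-SU replicates 1 and 2, at 241. In KPC4, deviations of same-numbered libraries correlated at 0.351, 0.436 and 0.211, so numbers were taken to pair these libraries from the values alone. Libraries with different numbers were not compared in this way. Alternatives were DESeq2 1.42.0, its size factors, other count filters, the replicate block, 1 fit for both lines, robust estimation off and leaving out each library. A gene length from the longest transcript was chosen after seeing the data.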

Additional observations from a re-analysis of the deposited data

Results flagged for a closer look

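The 6 results below stand here because an interaction over all 12 libraries separated the change in PSC4 from that in KPC4 (edgeR quasi-likelihood, adjusted p under 0.05), each over 3 libraries per group. The change in PSC4 minus that in KPC4, on the log2 scale, was 1.18 for Slc25a15 (adjusted p = 0.0123), 1.20 for Slc25a5 (adjusted p = 0.0188) and 1.75 for Slc25a33 (adjusted p = 0.0473). It was -0.81 for Slc25a51 (adjusted p = 0.0210), -1.53 for Slc25a45 (adjusted p = 0.0355) and -0.91 for Slc25a24 (adjusted p = 0.0363). The supernatants also differ between the lines in origin and in the number of transfers, and the part of this in the differences cannot be told apart from that of the line.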

How the results depend on the processing

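The 23 carriers called in PSC4 became 22 to 27 under the settings that kept all libraries and 16 to 22 when 1 library was left out, 16 being without Gem-SU replicate 2, and no called carrier changed sign in any setting. In KPC4 the count of 0 became 3 with the replicate block, 2 with DESeq2 and 2 in 1 fit over all 12 libraries, and lay between 0 and 3 when 1 library was left out, 3 being without Gem-PSC-SU replicate 1. Apart from the block, no share over all genes stands beside these KPC4 counts, so they are not read against other genes. The 6 differences between the lines became 10 with the replicate block and 2 to 7 without 1 library, 2 being without PSC4 Gem-SU replicate 2 or KPC4 Control-PSC-SU replicate 3 and 3 without PSC4 Control-SU replicate 1, Control-SU replicate 3 or Gem-SU replicate 3. The 17 control differences stayed between 15 and 20, and between 14 and 18 without 1 library. With the replicate block 20 carriers differed between controls, or 51.3%, beside 52.1% of all genes. Apart from the block, no share over all genes stands beside the alternative counts for PSC4, the difference and the controls. Those counts are not read against other genes either. Estimates of carriers that had not passed turned sign in at least 1 fit without 1 library for 3 of 39 carriers in PSC4, 11 of 41 in KPC4, 8 of 39 in the difference and 5 of 39 between controls. Among those given in full, Slc25a4 in PSC4 ranged from -0.37 to 0.0063, the latter without Gem-SU replicate 3, and Slc25a25 between controls from -0.28 to 0.15, the latter without KPC4 Control-PSC-SU replicate 2. The cause of these shifts was not tested. Same-numbered PSC4 libraries were not taken as pairs, since their deviations correlated at 0.428, -0.0548 and 0.102. For the differences between the lines and between controls, the block still held replicate terms for both lines. Within PSC4 the block gave 27 calls, with the 23 among them, and 7266 of 13347 genes in all. With it the called genes of carrier import became 5 (4 higher and 1 lower) and those of the biogenesis regulators 2. Those of other mitochondrial transport became 7 (1 higher and 6 lower), and those of calcium handling stayed at 5. With the longest transcript as length, Slc25a25 made up 6.14% of its class in control PSC4, 63.7% with Gem-SU and 2.13% in control KPC4. Low counts limit Slc25a29, Slc25a43, Slc25a45, Slc25a47 and Slc25a48 most, and 3 libraries against 3 cannot give an exact p under 0.1.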
